A study of Mus musculus with 9 samples.

Results

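Ankrd33b, Xylt1, Dpys, Lmbrd2, Cpne4 and Nccrp1 were each counted at a small remnant of their normal level in mouse kidney tumours. They are 6 of the 14052 genes in the count table, chosen by name because earlier values of these same areas placed them among the largest decreases in tumour. The difference between tumour and normal areas is therefore the reason they are here, and it is described below without a test. The tumour group holds 5 areas, L4, R2, R3, R4 and R5, of renal cortex tumour from VhlF/FPbrm1F/FKsp-Cre mice, in which both floxed genes are targeted by a Cre driven by the Ksp promoter, that of the tubule cadherin Cdh16. The normal group holds 4 areas, L1, L2, R1 and R2, of renal cortex from wild-type mice. All animals were on a normal diet until about 1 year of age. The tumour mice had a mixed background of C57BL/6, BALB/c and 129, and the normal mice were C57BL/6, so strain and genotype cannot be told apart. The descriptions of all tumour areas share 1 number and those of all normal areas another, so each group may be a single animal, and p-values then measure only the spread between areas.

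The libraries held 5143527 to 8250261 counted reads, and a count of 0 allows up to 3 counts, or 0.364 to 0.583 CPM before scaling. CPM are counts scaled to a common library size, here after TMM scaling, and plus-or-minus values after a mean CPM are SDs over 5 tumour or 4 normal areas. Vhl stood at 45.1 to 75.7 CPM in tumour areas and 97.7 to 108 CPM in normal areas, Pbrm1 at 106 to 162 CPM in tumour areas and 141 to 164 CPM in normal areas, and Cdh16 at 765 to 1082 CPM in tumour areas and 1112 to 1163 CPM in normal areas. A gene count can include reads outside a deleted exon and from cells without Cre. Of the 14052 genes, 3989 were at 0 in all libraries, and such genes are given here only as listed at 0.

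The 6 genes belong to no common pathway. Dpys encodes dihydropyrimidinase, which opens the ring of dihydrouracil and dihydrothymine in the middle step of pyrimidine breakdown, a pathway of liver and kidney. Xylt1 encodes a xylosyltransferase that puts the first sugar of a glycosaminoglycan chain onto a proteoglycan core protein. Cpne4 is a copine, a family of calcium-dependent phospholipid-binding proteins with C2 domains, and Lmbrd2 encodes a membrane protein of the LMBR1 family with many transmembrane stretches. Nccrp1 encodes a relative of the F-box-associated domain proteins, known in mammals mainly from stratified squamous epithelium. Ankrd33b encodes a protein with ankyrin repeats, a fold that binds other proteins.

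Promoter windows of 300 bases, from 250 before to 50 after a transcription start, were found for 3 of the 6 genes in the RefSeq table of build GRCm38.p6. They are shown so that shared letters can be looked for. The genes were chosen because each fell, and joint control was not tested. Each is written 5′ to 3′ along its gene, and capitals mark the GC box GGGCGG or its reverse complement and the hypoxia response element core ACGTG or its reverse complement. The windows lie at chr15:31367710-31368009 on the minus strand (Ankrd33b), chr15:9140320-9140619 on the plus strand (Lmbrd2) and chr9:104569405-104569704 on the plus strand (Cpne4, the first of 2 windows of this gene).
Ankrd33b: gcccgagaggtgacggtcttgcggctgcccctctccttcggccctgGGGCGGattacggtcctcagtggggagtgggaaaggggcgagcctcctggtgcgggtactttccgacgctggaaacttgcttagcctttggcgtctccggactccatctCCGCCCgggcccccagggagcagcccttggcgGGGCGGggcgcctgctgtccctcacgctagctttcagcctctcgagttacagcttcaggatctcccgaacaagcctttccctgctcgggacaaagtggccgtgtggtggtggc
Lmbrd2: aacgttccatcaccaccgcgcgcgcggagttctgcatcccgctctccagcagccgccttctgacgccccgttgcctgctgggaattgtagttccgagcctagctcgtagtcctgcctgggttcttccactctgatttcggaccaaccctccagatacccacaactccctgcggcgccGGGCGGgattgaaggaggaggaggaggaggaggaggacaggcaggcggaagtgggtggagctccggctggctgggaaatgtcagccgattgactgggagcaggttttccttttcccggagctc
Cpne4: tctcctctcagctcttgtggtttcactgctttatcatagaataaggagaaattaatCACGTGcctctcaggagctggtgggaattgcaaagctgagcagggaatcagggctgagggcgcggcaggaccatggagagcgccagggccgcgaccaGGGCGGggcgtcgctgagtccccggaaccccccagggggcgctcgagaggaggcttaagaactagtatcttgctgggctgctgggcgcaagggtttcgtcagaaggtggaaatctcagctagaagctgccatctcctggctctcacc

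The windows printed above held 22 CpG pairs for Ankrd33b, 21 for Lmbrd2 and 14 for Cpne4, against a median of 7 over all 32851 windows of the table. Of all windows, 76.9%, 75.2% and 63.7% held fewer CpG pairs than these 3 in turn, so such values are common. The GC box was found in all 3, with 3 matches in Ankrd33b and 1 each in Lmbrd2 and Cpne4, and it occurs in 35.7% of all windows. The core ACGTG occurs in 19.6% of all windows, and among the printed windows it was found in that of Cpne4, as CACGTG, which reads alike on both strands, counts as 2 matches and is also an E-box (CANNTG, in 72.3% of all windows). The other Cpne4 window held 1 CpG pair, 1 E-box and no GC box. Searched on both strands, the cAMP response element (1.79% of all windows), the HNF4 site (0.475%), the HNF1 site (0.00913%), the glucocorticoid and androgen response element (0.475%) and the TATA box TATAAA (13.6%) had no match in these 4 windows. A match describes the letters and not a bound site.

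Dpys had 3, 0, 0, 11 and 7 reads in tumour areas L4, R2, R3, R4 and R5, against 83, 117, 114 and 86 reads in normal areas L1, L2, R1 and R2. On the CPM scale these were 0.418, 0, 0, 1.60 and 1.07 in the same tumour areas and 18.0, 16.0, 18.9 and 17.4 in the same normal areas. The groups stood far apart, and within the tumour areas R4 and R5 held most of the remaining reads. Dpys averaged 0.616 ± 0.701 CPM in tumour areas and 17.6 ± 1.24 CPM in normal areas, a log2 fold change (tumour over normal) of -4.72 ± 0.49. The error given after a log2 fold change is its size divided by the square root of the edgeR F statistic. It approximates a standard error and can be too small where reads are few. Without tumour R4 the value was -5.41, and in limma-voom it was -5.55. From the 21 tumour and 400 normal reads, the tumour level was 3.75% of normal, with an exact 95% interval of 2.29 to 5.81% that covers counting error only.

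Xylt1 had 5, 2, 4, 3 and 0 reads in tumour areas L4, R2, R3, R4 and R5, against 122, 222, 177 and 152 reads in normal areas L1, L2, R1 and R2. These came to 0.696, 0.336, 0.726, 0.436 and 0 CPM in tumour areas and 26.4, 30.3, 29.4 and 30.8 CPM in normal areas. No tumour area came near the normal range, and R5 had no read. The means were 0.439 ± 0.297 CPM in tumour areas and 29.2 ± 1.96 CPM in normal areas (log2 fold change -6.00 ± 0.30). The tumour level was 1.48% of normal by pooled reads (0.807 to 2.51%).

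Ankrd33b held 2, 2, 1, 1 and 3 reads in tumour areas L4, R2, R3, R4 and R5, against 180, 302, 235 and 194 reads in normal areas L1, L2, R1 and R2. Every tumour library was thus at or under 3 reads. In CPM the normal areas lay within a narrow band of 38.9, 41.2, 39.0 and 39.3, and the tumour areas at 0.278, 0.336, 0.182, 0.145 and 0.457. The means were 0.279 ± 0.125 CPM in tumour areas and 39.6 ± 1.06 CPM in normal areas (log2 fold change -7.04 ± 0.17). Pooled over the 9 tumour and 911 normal reads, the tumour level was 0.705% of normal (0.321 to 1.34%), the lowest remnant of the 6. The error of 0.17 is narrower than this counting interval and understates the uncertainty.

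Cpne4 had 27, 9, 24, 28 and 25 reads in tumour areas L4, R2, R3, R4 and R5, against 288, 547, 476 and 374 reads in normal areas L1, L2, R1 and R2. In CPM the tumour areas stood at 3.76, 1.51, 4.36, 4.07 and 3.80, and the normal areas at 62.3, 74.6, 79.1 and 75.7. Tumour R2 lay apart below the other 4 tumour areas. The means were 3.50 ± 1.14 CPM in tumour areas and 72.9 ± 7.32 CPM in normal areas (log2 fold change -4.37 ± 0.20).

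Lmbrd2 was counted deepest of the 6, with 108, 96, 117, 190 and 92 reads in tumour areas L4, R2, R3, R4 and R5, against 1556, 2626, 1803 and 1606 reads in normal areas L1, L2, R1 and R2. Its CPM were 15.03, 16.1, 21.2, 27.6 and 14.0 in tumour areas and 337, 358, 299 and 325 in normal areas. Tumour R4 was the highest tumour area and still 10.9-fold below the lowest normal area. The means were 18.8 ± 5.65 CPM in tumour areas and 330 ± 24.4 CPM in normal areas (log2 fold change -4.13 ± 0.17), and the pooled tumour level was 5.67% of normal (5.21 to 6.16%).

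Nccrp1 had 76, 11, 46, 21 and 14 reads in tumour areas L4, R2, R3, R4 and R5, against 323, 789, 372 and 284 reads in normal areas L1, L2, R1 and R2. In CPM it stood at 10.6, 1.85, 8.35, 3.05 and 2.13 in tumour areas and 69.9, 107.6, 61.8 and 57.5 in normal areas. It was the most variable of the 6 in the normal areas, where L2 was highest, with a coefficient of variation of 30.8% against 2.68 to 10.04% for the other genes. The tumour areas L4 and R3 were the highest of their group, and the groups did not overlap. The means were 5.19 ± 4.01 CPM in tumour areas and 74.2 ± 22.9 CPM in normal areas (log2 fold change -3.83 ± 0.44).

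**Figure D1:**
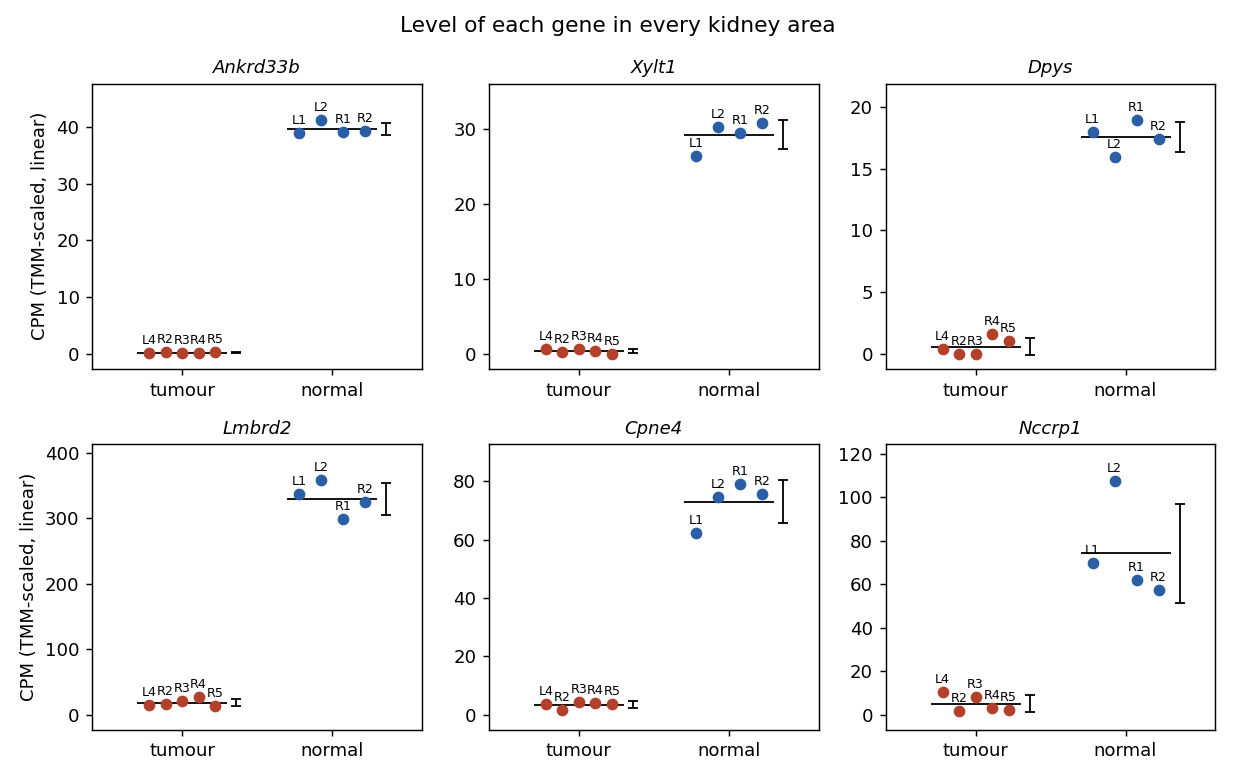
CPM (linear axis) of each of the 6 genes in the 5 tumour and 4 normal areas, 1 panel per gene with its own scale. Points are single areas with their names, horizontal lines are group means and error bars are SDs; the tumour points of Ankrd33b lie between 0.145 and 0.457 CPM and the normal points between 38.9 and 41.2 CPM, and in each panel all tumour points are below all normal points.

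All 6 genes passed the low-count filter and lay lower in every tumour area than in any normal area. Over all 7020 tested genes, 33.0% had all tumour areas below all normal areas, 34.8% had all above, and 67.8% did not overlap in either direction. In edgeR 35.3% were called lower, 39.3% higher and 74.6% in either direction. Since the 6 were chosen on this contrast, nothing is read from their count. By fitted fold change, Ankrd33b ranked as the 3rd largest decrease of the tested genes, Xylt1 as the 4th, Dpys as the 7th, Cpne4 as the 12th, Lmbrd2 as the 14th and Nccrp1 as the 17th. The median log2 fold change of the 6 was -4.54, against 0.06 over all tested genes. Normal areas averaged 10 CPM or more for 5018 tested genes, and by fold change the 6 are among the lowest 10 of these. The other 4 of these 10 are Eif3j1 (-4.58), Rps3a1 (-4.55), Dnajc6 (-4.07) and Zbtb16 (-3.98), and the next genes after Nccrp1 are Klhl3 (-3.81) and Slc16a14 (-3.64).

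**Figure D2:**
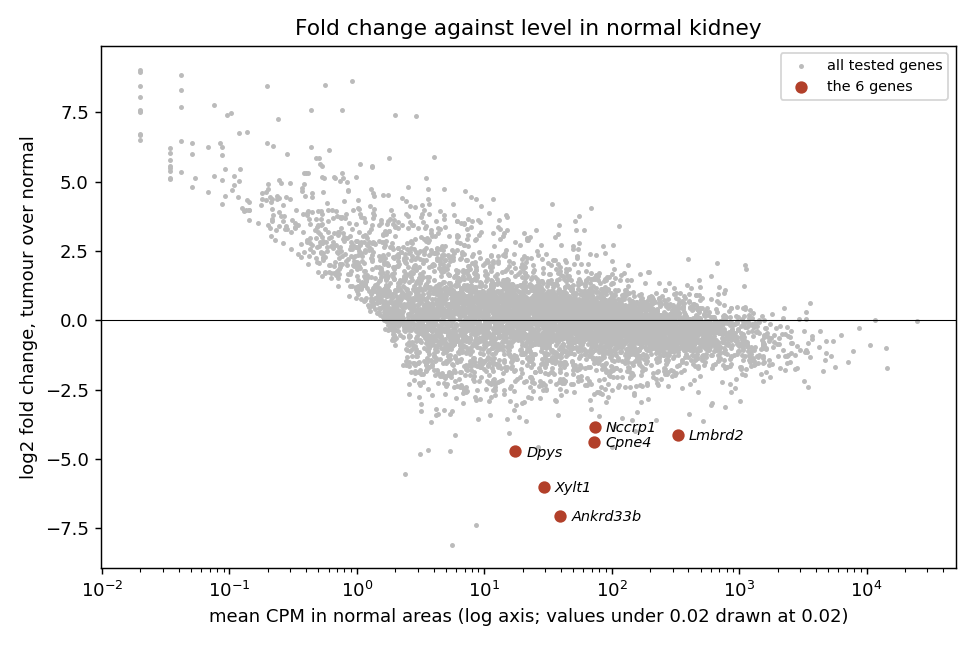
Log2 fold change (tumour over normal, vertical axis) against mean CPM in normal areas (log axis) for 7020 tested genes in grey and the 6 genes in red. The 6 lie between -3.83 and -7.04, below nearly all genes of similar normal level.

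The level left in each tumour area was expressed relative to normal. As a percentage of the normal mean, Ankrd33b lay between 0.367% (R4) and 1.15% (R5), Xylt1 between 0% (R5) and 2.49% (R3), and Dpys between 0% (R2 and R3) and 9.09% (R4). Lmbrd2 lay between 4.24% (R5) and 8.36% (R4), Cpne4 between 2.07% (R2) and 5.98% (R3), and Nccrp1 between 2.49% (R2) and 14.3% (L4). For Ankrd33b, Xylt1 and Dpys these percentages rest on 0 to 11 reads per area, too few to rank the areas.

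Markers of tubule cells fell in the same areas. Of 17 tested proximal tubule markers 15 were called lower and none higher, and of 17 tested distal nephron markers 15 were called lower and none higher, against 35.3% lower and 39.3% higher over all tested genes. Slc5a12, among the proximal markers called lower, averaged 0.547 CPM in tumour areas and 5.56 CPM in normal areas. The low-count filter thus kept it through the normal areas. The summed proximal list stood at 12190 to 23761 CPM in tumour areas and 44057 to 46397 CPM in normal areas. As a percentage of the normal mean, it was 26.8, 35.4, 47.2, 52.3 and 41.4% in tumour areas L4, R2, R3, R4 and R5, and the distal list was 29.3, 18.0, 59.5, 50.0 and 47.8% in the same areas. The largest decreases in the 2 lists were Slc8a1, a sodium-calcium exchanger of the distal tubule (-3.60 ± 0.27, adjusted p = 1.17e-06), and Slc34a3, a phosphate carrier (-3.43 ± 0.25, adjusted p = 9.42e-07). In bulk tissue, fewer cells of a type and less RNA per cell cannot be told apart, and which cells held the reads of the 6 genes was not tested.

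**Figure D3:**
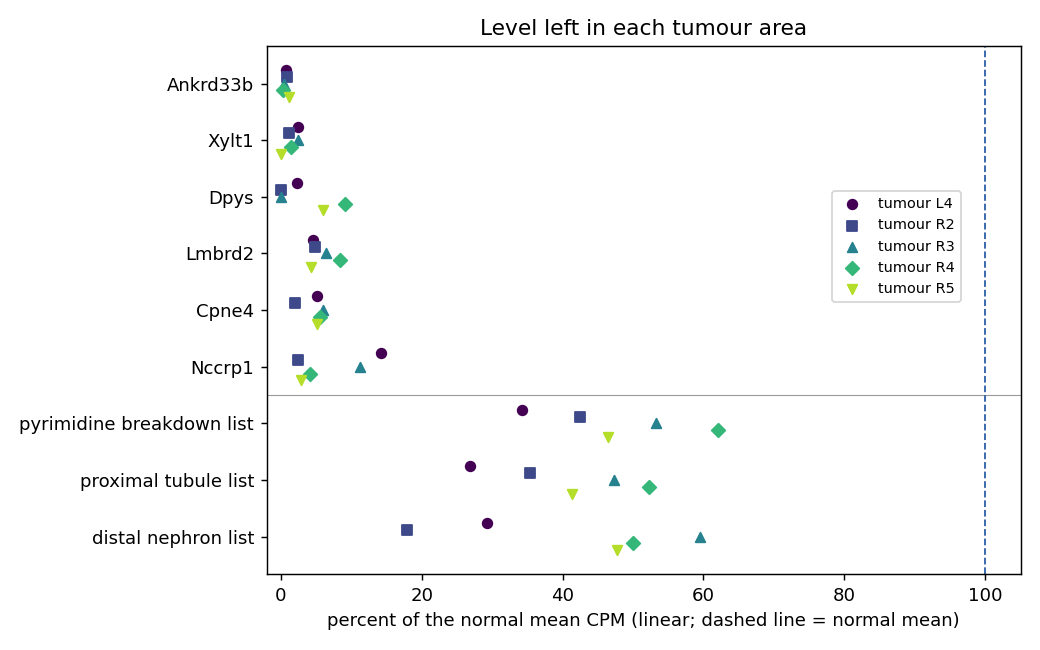
CPM in each of the 5 tumour areas as a percentage of the normal mean (linear axis, dashed line at 100%), for the 6 genes and for the summed CPM of 3 lists. Each symbol is 1 tumour area. The 6 genes lie between 0 and 14.3%, the proximal list between 26.8 and 52.3%, the distal list between 18.0 and 59.5% and the pyrimidine breakdown list between 34.2 and 62.1%. The 6 were chosen for their decrease, so nothing is read from the gap to the lists.

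Markers of leukocytes and of urothelial and stratified epithelium were higher, and those of podocytes, vessels and stroma differed in both directions. Over all tested genes 39.3% were called higher and 35.3% lower, the shares to set beside each list here. Of 11 tested leukocyte markers 10 were called higher. The list summed to 1267 to 2986 CPM in tumour areas and 93.8 to 122 CPM in normal areas. Mzb1, a plasma cell gene, changed by 7.36 ± 0.39 (adjusted p = 1.55e-07), and Ptprc was at 0 in every library. Cd79b, Ms4a1, Itgam and Nkg7 averaged 0.0341, 0.837, 0.721 and 0.901 CPM in normal areas, so the low-count filter kept them through the tumour areas. Of 16 tested markers of podocytes, vessels and stroma 5 were higher, with Col1a1 at 3.27 ± 0.33, and 9 lower, with Nphs1, the slit diaphragm protein nephrin, at -2.63 ± 0.24. Nphs1 averaged 1.08 CPM in tumour areas and 6.85 CPM in normal areas, so the filter kept it through the normal areas. All 8 tested urothelial and stratified epithelium markers, a cell class in which Nccrp1 is known, were called higher in edgeR, and 4 in limma-voom. These 8 averaged 0 (Dsc3) to 1.32 CPM (Upk1a) in normal areas, so the low-count filter kept them through the tumour areas. A marker low in every area could not enter this count, and nothing is read from the 8 calls. The list summed to 1322, 127, 77.7, 55.6 and 268 CPM in tumour areas L4, R2, R3, R4 and R5 and 1.16 to 7.36 CPM in normal areas, with Krt14 at 0 in every library. Tumour L4 was highest both for this sum and for Nccrp1, while R3, the next highest for Nccrp1, had the sum of 77.7 CPM, lower than R2 and R5. The part of these cells in the Nccrp1 counts was not tested.

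The steps of pyrimidine breakdown on either side of Dpys were read beside it. Because Dpys was chosen for its decrease, nothing is read from a smaller difference in them. Dpyd, dihydropyrimidine dehydrogenase, makes the substrate of Dpys, and Upb1, beta-ureidopropionase, uses its product. Dpyd stood at 97.6, 134, 159, 188 and 143 CPM in tumour areas L4, R2, R3, R4 and R5, against 236, 244, 234 and 251 CPM in normal areas. It fell by 0.74 ± 0.15 on the log2 scale (adjusted p = 0.00106). Upb1 stood at 107, 126, 163, 193 and 168 CPM in tumour areas, against 139, 136, 137 and 136 CPM in normal areas, and the groups overlapped (0.15 ± 0.15, adjusted p = 0.387). Upb1 passed as higher with scaling by library size alone (0.43) and without tumour L4 (0.26, adjusted p = 0.0439). In the list of this pathway 4 of 7 tested genes were lower and 2 higher, beside 35.3% lower and 39.3% higher over all tested genes. The aminotransferase Abat (-1.53 ± 0.17, adjusted p = 1.61e-05) and the dehydrogenase Aldh6a1 (-1.16 ± 0.15, adjusted p = 5.85e-05), which handle later products, fell, and so did the uridine phosphorylase Upp2 (-0.73 ± 0.21, adjusted p = 0.00838). Upp2 was not called with library size alone (adjusted p = 0.0525) or in the areas with the letter R (adjusted p = 0.103). Agxt2, an aminotransferase that can use the thymine product, rose by 0.90 ± 0.19 (adjusted p = 0.00161), and the nucleotidase Nt5c3 by 0.36 ± 0.07 (adjusted p = 0.00115).

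Genes that supply pyrimidine nucleotides were called higher in 6 of 8 tested genes and lower in 1, against 39.3% higher and 35.3% lower over all tested genes. Rrm2, a subunit of ribonucleotide reductase, averaged 37.8 ± 7.45 CPM in tumour areas and 6.73 ± 1.02 CPM in normal areas (2.48 ± 0.17, adjusted p = 6.09e-07). Cad, which starts pyrimidine synthesis, rose by 1.09 ± 0.16 (adjusted p = 0.000102) and Rrm1, the other reductase subunit, by 1.06 ± 0.11 (adjusted p = 7.5e-06). Nme1 was lower by 0.22 on the log2 scale (adjusted p = 0.00453), and read higher by 0.072 without a call when libraries were scaled by size alone. The dihydropyrimidinase-like genes Dpysl2 and Dpysl3, relatives of Dpys best known from neurons, rose by 2.10 ± 0.12 (adjusted p = 2.17e-07) and 4.20 ± 0.23 (adjusted p = 1.6e-07).

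Xylt2, which carries out the same reaction as Xylt1, was higher in tumour. It stood at 52.1, 49.0, 49.2, 45.5 and 48.4 CPM in tumour areas L4, R2, R3, R4 and R5, against 31.4, 29.0, 26.1 and 24.9 CPM in normal areas L1, L2, R1 and R2. The groups did not overlap (0.81 ± 0.08, adjusted p = 1.05e-05), and the tumour areas varied little. The later enzyme of the linker that was tested, B3gat3, rose by 0.33 ± 0.05 (adjusted p = 0.000213). Fam20b, the linker kinase, was at 0 in every library, and B4galt7 was too low for a test, at 0.549 CPM in tumour areas and 0.188 CPM in normal areas. Of 13 tested genes of chain synthesis and sulfation, 5 were higher and 5 lower, with a median log2 fold change of 0.07, close to the 39.3% higher, 35.3% lower and median of 0.06 over all tested genes. The heparan sulfate polymerases Ext1 (0.40 ± 0.08, adjusted p = 0.00112) and Ext2 (0.87 ± 0.08, adjusted p = 5.56e-06) rose. The sulfotransferase Ndst1 fell by 1.46 ± 0.12 on the log2 scale (adjusted p = 1.95e-06). Csgalnact1, which commits a chain to chondroitin sulfate, fell by 0.53 ± 0.07 (adjusted p = 4.03e-05). Papss2, which makes the sulfate donor, fell by 0.51 ± 0.16 (adjusted p = 0.0127, and 0.125 with library size alone).

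Proteoglycan core proteins were called higher in 14 of 19 tested genes and lower in 3 (5 lower in DESeq2, in limma-voom and without tumour L4), where all tested genes had 39.3% higher and 35.3% lower. The list was not limited to core proteins whose chains begin with the Xylt1 step. Cd44, a hyaluronan receptor that can carry chains, averaged 171 ± 65.1 CPM in tumour areas and 7.93 ± 1.60 CPM in normal areas (4.45 ± 0.31, adjusted p = 7.27e-07). Sdc1, a syndecan, averaged 33.7 ± 23.6 CPM in tumour areas and 3.42 ± 0.547 CPM in normal areas (3.31 ± 0.49, adjusted p = 0.000127). Lum, a collagen-binding core protein, changed by 4.15 ± 0.72 (adjusted p = 0.000396), and by 3.48 without tumour L4. Hspg2, the basement membrane core protein perlecan, was lower by 1.15 on the log2 scale (adjusted p = 3.44e-06), as was Esm1, an endothelial proteoglycan, by 1.04 (adjusted p = 3.22e-06). Tgfbr3 was lower by 0.27 (adjusted p = 0.00384), and read 0.022 higher without a call with library size alone. Vcan, among the core proteins called higher, averaged 2.17 CPM in tumour areas and 0.365 CPM in normal areas. The low-count filter thus kept Vcan through the tumour areas.

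Relatives of Cpne4, Lmbrd2 and Nccrp1 had smaller differences, and no member of the table's copine, LMBR1 or F-box-associated genes that could be tested fell as far. That follows from the choice of Cpne4, Lmbrd2 and Nccrp1 for their decrease, and nothing is read from it. Cpne3 was the only other copine tested and stood at 250 ± 7.87 CPM in tumour areas and 381 ± 16.6 CPM in normal areas (-0.61 ± 0.05, adjusted p = 1.55e-06). Lmbrd1, a lysosomal membrane protein of cobalamin transport, stood at 104 to 115 CPM in tumour areas and 76.1 to 84.4 CPM in normal areas (0.47 ± 0.05, adjusted p = 2.08e-05). Lmbr1l rose by 1.29 ± 0.11 (adjusted p = 3.52e-06). Lmbr1 was lower by 0.33 on the log2 scale (adjusted p = 0.00101), but with library size alone it read -0.04 (adjusted p = 0.702). Fbxo2, which binds glycoproteins, averaged 2.57 ± 0.989 CPM in tumour areas and 1.93 ± 0.276 CPM in normal areas (0.41 ± 0.31, adjusted p = 0.25). Over all 8 tested relatives, those of Dpys and Xylt1 included, 5 were higher and 2 lower (39.3% and 35.3% over all tested genes).

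**Figure D4:**
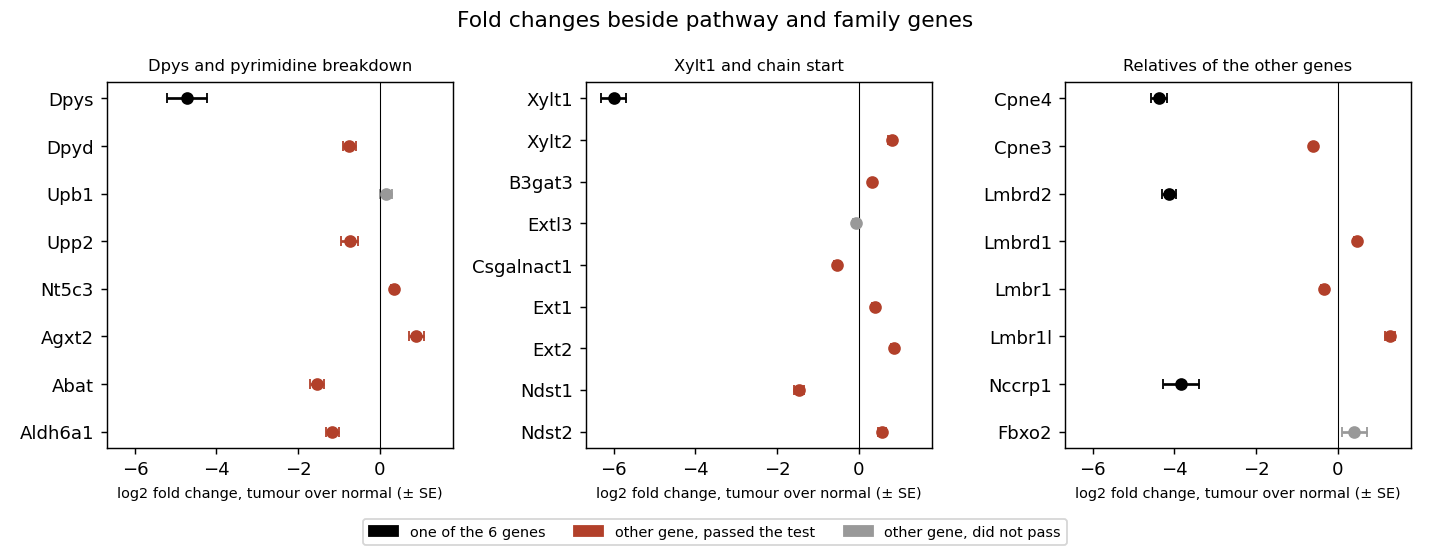
Log2 fold change (tumour over normal, horizontal axis) with its standard error, approximated from the F statistic, for Dpys and Xylt1 beside genes of their pathways and for Cpne4, Lmbrd2 and Nccrp1 beside genes of their families. Black marks one of the 6 genes, red another gene that passed the test and grey one that did not; the other genes lie between -1.53 and 1.29.

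The positions of the 6 genes were compared with those of their neighbours, since Ankrd33b, Dpys and Lmbrd2 all lie on chromosome 15 and Xylt1 and Nccrp1 on chromosome 7, with Cpne4 on chromosome 9. Neighbours were taken in the order of the GENCODE M21 annotation, and no coordinates are given for them because that annotation is on another build than mm9. Of the 60 nearest tested genes, 5 on either side of each, 24 were called higher and 23 lower, and their median log2 fold change was 0.03, against 39.3% higher, 35.3% lower and a median of 0.06 over all tested genes. Among them, Dcstamp was kept by the low-count filter through the tumour areas and Atp2c1 through the normal areas. On chromosome 15, 28.9% of the 336 other tested genes were called lower and 46.7% higher. On chromosome 7 the shares of 450 were 26.9% and 47.3%, and on chromosome 9 those of 438 were 32.6% and 41.1%.

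The genes next to each of the 6 are given singly. A smaller decrease in them follows from the choice of the 6, and nothing is read from it. Beside Ankrd33b, Dap, a cell death-associated gene, rose by 1.63 (adjusted p = 2.24e-08) and Ropn1l stood at 4.21 CPM in tumour areas and 4.004 CPM in normal areas (0.04, adjusted p = 0.869). Beside Dpys, Lrp12 was lower by 0.92 on the log2 scale (adjusted p = 4.81e-06). Its other neighbour, Dcstamp, a fusion protein of osteoclasts and macrophages, had 257 reads in tumour areas and 2 in normal areas, a ratio of 91.7 (exact 95% interval 25.1 to 761). Beside Lmbrd2 lay Ugt3a2 (-0.67, adjusted p = 0.00228) and Skp2. Beside Xylt1 lay Nucb2 (0.01, adjusted p = 0.984) and Rps15a, which differed by 0.48 (adjusted p = 0.039) and lost its call in 9 of 18 alternatives. Beside Cpne4 lay Acpp (-0.86, adjusted p = 0.000350) and Mrpl3 (-1.19, adjusted p = 4.54e-06), and beside Nccrp1 lay Supt5 (0.48, adjusted p = 8.17e-05) and Pak4 (0.11, adjusted p = 0.144). Pak4 passed as higher with upper quartile factors (0.17) and with library size alone (0.40).

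Among the 60, Atp2c1, a Golgi calcium and manganese pump, was nearly absent from the tumour areas as well. It is 3 tested genes away from Cpne4, with 0, 0, 0, 1 and 0 reads in tumour areas L4, R2, R3, R4 and R5, against 13, 19, 13 and 10 reads in normal areas L1, L2, R1 and R2. Its level was lower by a ratio of 77.1 (13.3 to 3099), at a normal mean of 2.40 ± 0.368 CPM. The genes between it and Cpne4 moved in both directions, with Nudt16 higher by 1.09. Atp2c1 was singled out after its value was seen.

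**Figure D5:**
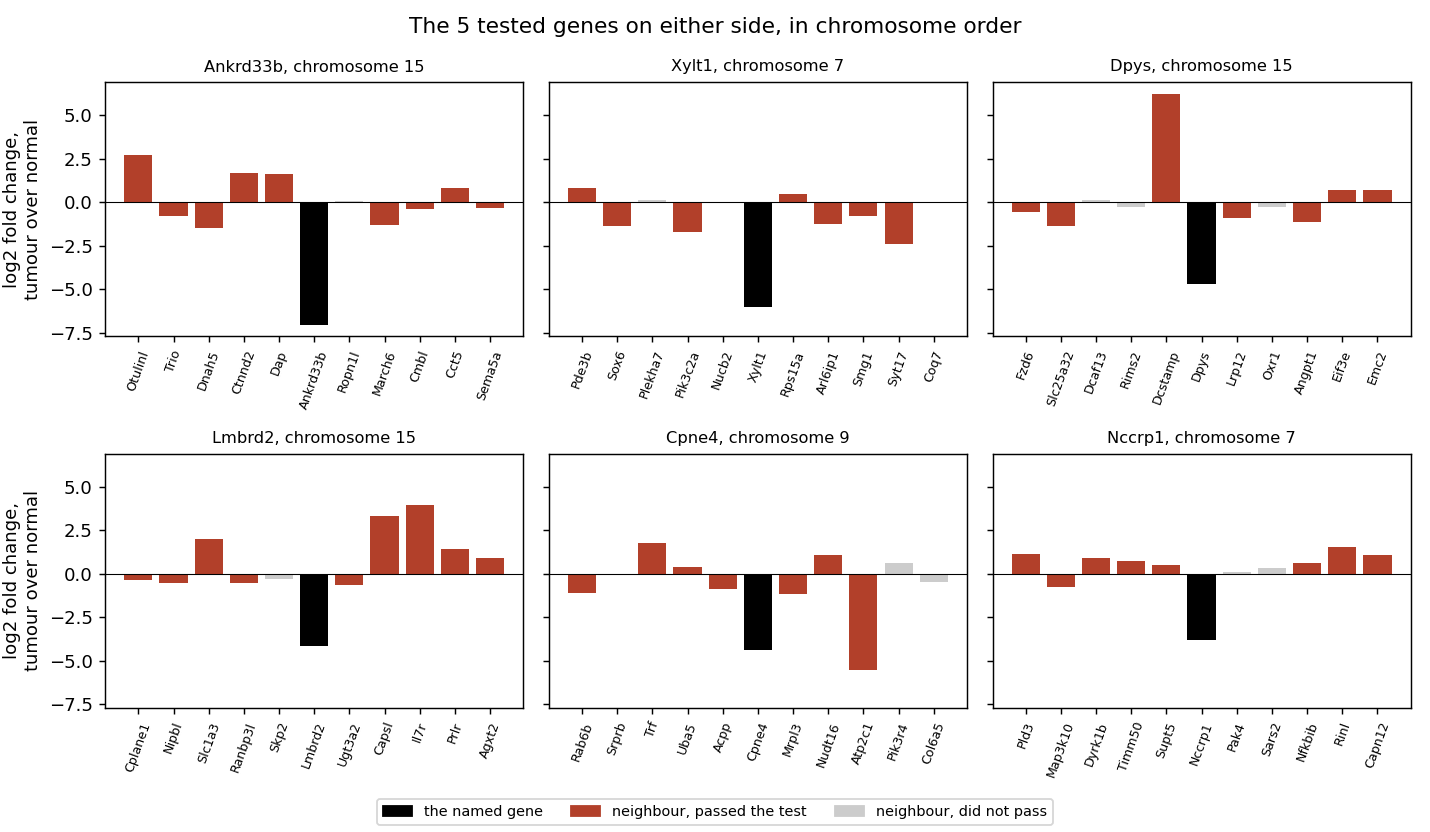
Log2 fold change (tumour over normal, vertical axis) of each of the 6 genes, in black, and of the 5 tested genes on either side in chromosome order; red bars passed the test and grey bars did not. The neighbours lie between -5.55 (Atp2c1) and 6.24 (Dcstamp), and the fitted values of these 2 genes depend on the prior count because 1 group held 1 or 2 reads.

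In GENCODE M21, 5 of the 6 genes overlap another gene, and how many reads fall in the overlaps was not measured. No stretch of at least 50 bases at 95% identity was shared between the longest coding transcript of Ankrd33b, Xylt1, Dpys, Cpne4 or Nccrp1 and a transcript of another gene in GENCODE M21. Lmbrd2 shared such stretches, of up to 84 bases in a transcript of 8099 bases, with 9 other genes. Skp2 overlaps Lmbrd2 on the opposite strand, and the library kit keeps no strand, so reads of shared sequence cannot be told apart. Skp2 itself was low, at 1.59 CPM in tumour areas and 1.96 CPM in normal areas (adjusted p = 0.315), beside 18.8 CPM in tumour areas and 330 CPM in normal areas for Lmbrd2. Samd4b overlaps Nccrp1, Gm45153 overlaps Xylt1 and the microRNA gene Gm23391 overlaps Cpne4, each on the same strand, and Gm16291 overlaps Dpys on the opposite strand. None of these 4 was analysed here.

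Likeness of pattern over the 9 areas was measured by the root mean square difference in log2 CPM relative to the normal mean. This measure includes the drop from normal to tumour, for which Cpne4, Lmbrd2 and Nccrp1 were chosen. A gene with a drop of similar size therefore tends to lie near. Log2 fold changes were -4.37 for Cpne4 and -4.58 for Eif3j1, and -3.83 for Nccrp1 and -3.98 for Zbtb16. Likeness between areas apart from this drop was not tested. Log2 CPM here include a prior count of 2, which sets most of the tumour value where an area holds few reads. Ankrd33b, Xylt1 and Dpys held 0 to 11 reads per tumour area, so no nearest gene is named for them. Nearest to Cpne4 was Eif3j1 (0.35), a gene of a translation initiation factor subunit that averaged 4.17 ± 0.572 CPM in tumour areas and 99.99 ± 4.74 CPM in normal areas. Nearest to Nccrp1 was Zbtb16 (0.63), a transcription factor that averaged 9.63 ± 1.97 CPM in tumour areas and 152 ± 8.80 CPM in normal areas. For Lmbrd2 the lowest difference was that of Slx1b (0.33), but Slx1b had 0 reads in tumour areas and 124 in normal areas, so its tumour value is the prior count and not a measured level. Eif3j1 came next for Lmbrd2, at 0.36.

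Transcripts that follow strain, sex or androgen were read beside these values. Ifi202b, an interferon-inducible gene that depends on strain, had 325 reads in tumour areas and none in normal areas, which is at least 77.3-fold higher where the normal group is set to 3 counts in all. Nnt, which a deletion removes in part in the C57BL/6J substrain, averaged 468 ± 82.4 CPM in tumour areas and 340 ± 11.4 CPM in normal areas (0.46 ± 0.12, adjusted p = 0.00475). Kdm5d, a Y chromosome gene, averaged 3.68 ± 0.872 CPM in tumour areas and 3.02 ± 0.279 CPM in normal areas, and Ddx3y and Eif2s3y, also on the Y chromosome, were listed at 0 in every library. The androgen-dependent Kap averaged 24068 ± 4912 CPM in tumour areas and 24715 ± 578 CPM in normal areas (adjusted p = 0.847), while Slco1a1 fell by 2.60 ± 0.34 on the log2 scale (adjusted p = 5.42e-05). Of 9 tested genes of this list, 3 were higher and 3 lower, against 39.3% higher and 35.3% lower over all tested genes. Ifi202b, without a read in normal areas, was kept by the low-count filter through the tumour areas. The part of strain in the levels of the 6 genes cannot be told apart from that of the tumour.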

How the data were processed

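Per the labels' protocols, poly(A) RNA from DNase-treated extracts went into TruSeq libraries, which keep no strand. STAR 2.3, HTSeq and edgeR, with the build mm9, are listed in the submitters' processing notes. Not given in the sources used here are annotation, strand setting and filters. The authors deposited a table of counts per gene, taken here as raw read counts, with 1 column per area and no replicates pooled. Of 14052 identifiers, 14026 matched a symbol. Counted reads per library ran from 5143527 to 8250261.

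The count test was edgeR 4.0.16 in R 4.3.3: genes kept by filterByExpr (at least 10 reads, 15 in all), TMM scaling, quasi-likelihood fit with the group alone and Benjamini-Hochberg adjustment over 7020 tested genes, with a call at an adjusted p under 0.05. All adjusted p-values are from this fit unless another tool is named. CPM use the TMM factors; log2 CPM use a prior count of 2. Intervals of read ratios are exact binomial at 95%. Transcripts were compared with BLAST 2.17.0. The fit was tested on simulated counts in which few genes changed, whereas 74.6% of tested genes were called here. That run does not test how scaling acts when most genes differ.

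The 6 genes and all lists were chosen with earlier results of these data known. Named genes are the 6, up to 3 called genes per list and direction, genes of the same step or family, neighbours, the 3 most alike in pattern and the 12 largest decreases above 10 CPM. Other settings tried were scaling by upper quartile, by RLE or by library size, filters (none, or 1 CPM in 4 libraries), DESeq2 1.42.0, limma-voom 3.58.1, leaving out tumour L4 and R5, the R areas by themselves, and leaving out each area in turn. The cAMP, HNF1, HNF4 and hormone response motifs were searched by their consensus letters on both strands.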

Additional observations from a re-analysis of the deposited data

Results flagged for a closer look

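In 4 of 34 checked groups, 1 area stood apart from the rest of its group by more than Dixon's 95% critical value; chance alone gives about 1 group in 20. Cpne4 was 1.51 CPM in tumour R2, against 3.76 to 4.36 CPM in the other tumour areas. Ankrd33b was 41.2 CPM in normal L2, against 38.9 to 39.3 CPM in the other normal areas. The summed level of the relatives of the 6 genes was 1657 CPM in tumour R2, against 1122 to 1277 CPM in the other tumour areas. The summed urothelial and stratified epithelium markers reached 1322 CPM in tumour L4, against 55.6 to 268 CPM in the other tumour areas. No explanation was tested.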

How the results depend on the processing

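The median log2 fold change of the 6 genes, -4.54, lay between -4.26 (library size alone) and -4.99 (limma-voom) under the alternative fits, and between -4.92 and -4.30 with 1 area left out. Among the 6, Ankrd33b moved by more than its spread between areas, to -6.76 with library size alone, -7.36 without tumour L4 and R5 and -7.27 without tumour R5. That spread is of log2 CPM with a prior count of 2, which narrows it where reads are few, as for Ankrd33b. The 6 are therefore not ranked by stability. Dpys, at -4.72, read -5.55 in limma-voom and -5.41 without tumour R4, within its spread between areas. With library size alone, higher genes made up 68.9% of calls against 52.7%, the median of all genes was 0.35 against 0.06, and list counts became 3 lower for chain synthesis, 1 lower for the relatives, 1 higher for the proximal tubule, 0 lower for pyrimidine supply and 5 higher for strain and sex. Of single genes, Glo1 then read 0.020, Tgfbr3 0.022 and Nme1 0.072, opposite to their main values. Core proteins called lower numbered 5 in DESeq2 and in limma-voom, and 3 to 5 with 1 area left out, with 5 without tumour L4. Urothelial markers called higher numbered 4 in limma-voom, the distal list had 1 higher gene without a filter, and the proximal list 1 without tumour L4 and R5. Of 84 other genes followed, 71 kept their side of the threshold under all 18 alternatives. A gene without a call could change sign and still count among these, as Nucb2 (-0.19 to 0.30) and Kap (-0.11 to 0.24) did. Neighbour counts, an alternative set added after the data were seen, stayed within 1.5 times. No paired analysis was possible because the groups share a single area name. The causes of these shifts were not tested. Depth limits Ankrd33b, Xylt1 and Dpys in tumour, where libraries held 0 to 11 reads.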
